A study of Mus musculus with 6 samples.

Results

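Mitochondrial fatty acid beta-oxidation was followed here in RNA of the mouse aorta, through 33 listed genes that cover the activation of fatty acids, their entry into mitochondria, the oxidation spiral, electron transfer and ketone body use. A gene was taken up where a probe set of the array carried its symbol and no other, and the probe set of highest mean over the arrays stood for it. This found 30 of the 33 among 12393 genes with such a probe set. Of the other 3, Cpt1b had a probe set that also carried another symbol, and no probe set named Acsl1 or Acsl3 in the annotation used.

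The study compared C57BL/6J mice on a high fat diet with mice on regular chow, 3 Affymetrix arrays per diet, and each array carried RNA pooled from 3 aortas stripped of adventitia and of the fat around the vessel. The high fat diet lasted 16 to 18 weeks and began at an age of 10 weeks in high fat replicates 2 and 3, while high fat replicate 1 is labelled 16 to 20 weeks old. Chow replicates 2 and 3 were 26 to 28 weeks old, and chow replicate 1 has no age in its label. The label of high fat replicate 1 leaves little time before a diet of the stated length, and age could not be compared between the diets for replicate 1. In replicates 2 and 3, the start and length of the high fat diet give the age labelled on chow, 26 to 28 weeks. Males are stated for all arrays but high fat replicate 1. The pools are described as independent, so that p-values measure the spread between pools and not between animals.

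Fatty acids are joined to coenzyme A by long-chain acyl-CoA synthetases, handed to carnitine by carnitine palmitoyltransferase 1 at the outer mitochondrial membrane and returned to coenzyme A by carnitine palmitoyltransferase 2 at the inner one. Acyl-CoA dehydrogenases, hydratases, hydroxyacyl-CoA dehydrogenases and thiolases then shorten the chain in turn, and the electrons of the first step reach the respiratory chain through the electron transfer flavoprotein. Brown fat and heart rely heavily on this pathway, and many of its genes are known targets of PPAR alpha, a nuclear receptor that fatty acids activate.

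Sequence in front of these genes was read from RefSeq windows on mouse build GRCm38.p6, which held 26 of the 33 genes in 28 windows of 250 bases before to 50 after a start. Hadha and Hadhb are shown because they encode the subunits of the mitochondrial trifunctional protein and start head to head, with 272 bases between their starts. An opposite start of another gene within 300 bases was found for 8.36% of all 32851 windows. The stretch chr5:30155003-30155230, upstream of both starts, is printed on the plus strand, which is the strand of Hadhb, with the GC box (GGGCGG, found in 35.7% of all windows on either strand and in 19 of the 28) in capitals.
Hadha-Hadhb: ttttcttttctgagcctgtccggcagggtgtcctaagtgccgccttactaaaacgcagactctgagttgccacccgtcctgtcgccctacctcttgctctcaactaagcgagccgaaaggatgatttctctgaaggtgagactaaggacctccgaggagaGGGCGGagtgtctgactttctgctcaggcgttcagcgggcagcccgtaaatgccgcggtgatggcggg

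An exact form of the PPAR element, the letters AGGTCA repeated in the same direction with any 1 base between, was searched on both strands. It was in none of the 28 windows and in 0.0396% of all windows, a share too low for a match in 28 to be likely. Elements with other letters or outside the windows were not searched, so this absence does not show that the genes lack one. The single unit, AGGTCA on either strand, was in 4 of the 28 and in 16.3% of all. The share of member windows with a match was not above that of all windows, and the matches are shown only for their letters. Each is on the strand of its gene with the 6 letters of the match, or their reverse complement, in capitals: Echs1 at chr7:140116484-140116519, Acadvl at chr11:70015495-70015530, Cpt1a at chr19:3323192-3323227 and Acadm at chr3:153944872-153944893. A match describes the letters of these windows and is not a bound site.
Echs1: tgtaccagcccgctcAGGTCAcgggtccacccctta
Acadvl: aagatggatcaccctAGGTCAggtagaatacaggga
Cpt1a: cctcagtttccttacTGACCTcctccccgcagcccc
Acadm: gTGACCTtcgggctccggtgac

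Most genes of the spiral and all those measured of the carnitine shuttle and electron transfer had higher mean signals in aortas of mice on high fat diet, by 1.33 to 1.71 times in the 12 members with the smallest p-values. The 5 tested members with a lower mean were Acsl4, Acad9, Acadsb, Eci2 and Oxct1. Signals are MAS5 intensities on a linear scale, given below in the order of replicates 1, 2 and 3 for each diet. All arrays had been scaled to 1 trimmed mean, and each had 42.0 to 46.3% of its probe sets at a signal below 50. Fold changes are differences of mean log2(signal + 6), high fat minus chow, fitted with limma over all 13575 probe sets above a filter on low signals, and they understate the change of dim genes. Of the 30 genes, 28 passed the filter, a mean signal of 40.7, and Acot1 and Acot2 did not. Of these 28, 23 had a higher mean on high fat diet, where 50.9% of 8326 genes with 1 probe set each did, and their median log2 fold change was 0.34 against 0.01 over those genes. Over all 30, without the filter, 24 were higher and the median was 0.34.

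None of the members passed an adjusted p of 0.05 in limma with Benjamini-Hochberg adjustment over all probe sets, where 10 of the 13575 did, or 0.0737%. Cpt2 had the smallest adjusted p, 0.299. At an unadjusted p of 0.05, 12 of the 28 were higher on high fat diet, against 4.28% of genes, and none was lower, against 2.7% of genes. All 3 high fat arrays lay above all 3 chow arrays for 14 members, against 6.79% of genes, and none lay wholly below, against 5.78%. Leaving out 1 array at a time gave between 8 members at that unadjusted p, without high fat replicate 2 (2.61% of genes), and 17, without chow replicate 3 (5.08% of genes).

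**Figure D1:**
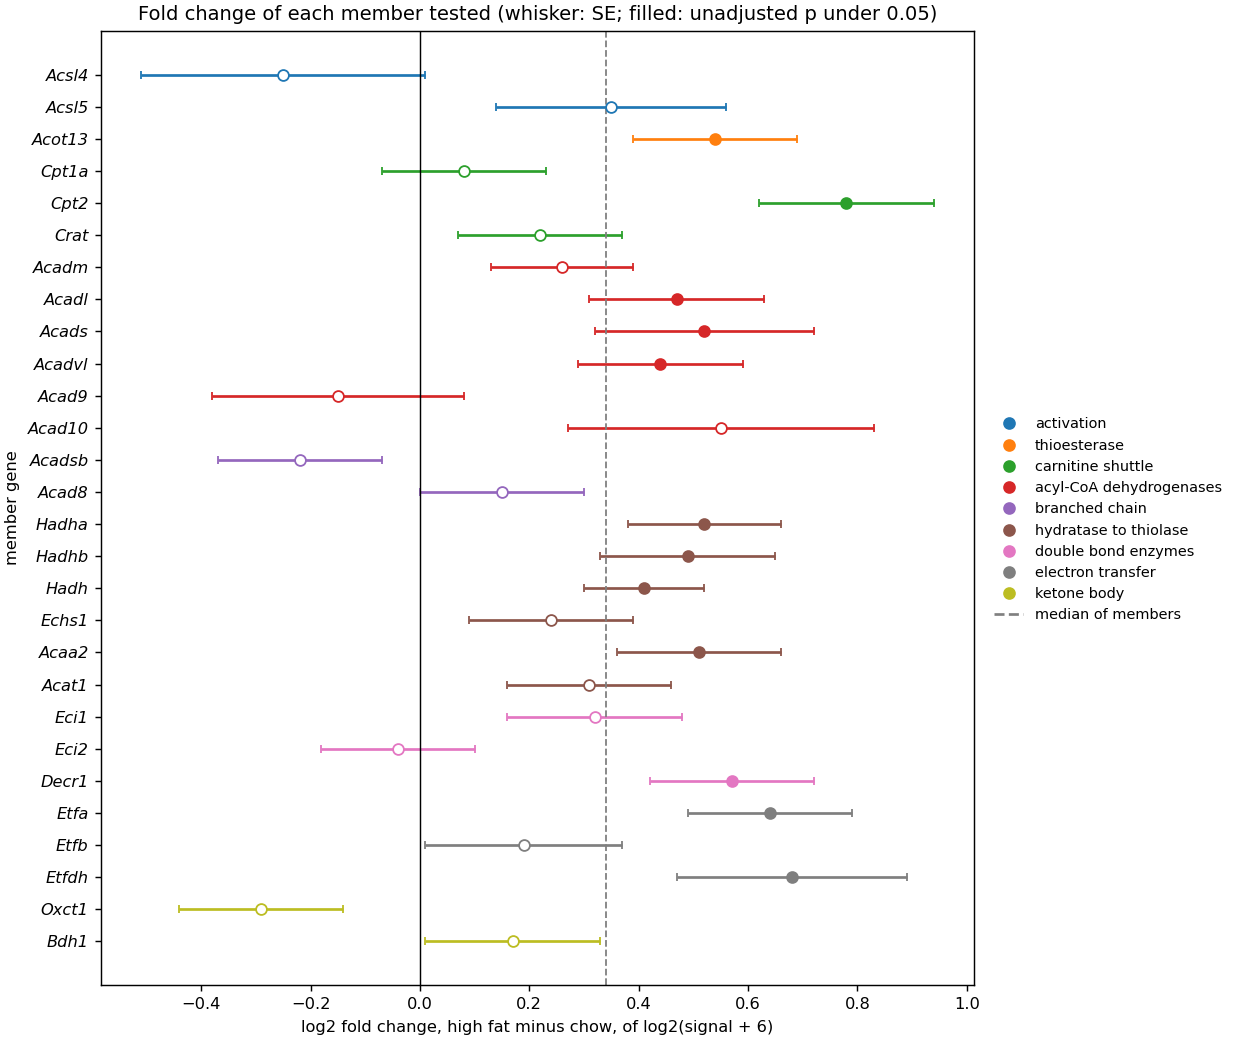
Fold change of the 28 members tested (x axis, log2, high fat minus chow; y axis, gene, coloured by role), with the SE as whisker and filled points for an unadjusted p under 0.05. The 12 filled points lie between 0.41 and 0.78, and 5 members lie below 0.

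Activation comes first in the pathway, and its genes and the thioesterases were measured thinly. Acsl5, a long-chain acyl-CoA synthetase of mitochondria and endoplasmic reticulum, had signals of 484, 712 and 688 on high fat diet and 437, 404 and 643 on chow. The diets overlapped, since chow replicate 3 lay above high fat replicate 1 (log2 fold change 0.35 ± 0.21, SE, adjusted p = 0.777). Acsl4, a synthetase that prefers arachidonic acid, was dim, at 49.3 to 63.9 on high fat diet and 50.6 to 98.7 on chow. A dimmer Acsl4 probe set that the filter removed read 2.6 to 6.2 on high fat diet and 14.1 to 17.8 on chow, levels at which background cannot be separated from signal.

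Acot13, a thioesterase that releases fatty acids from coenzyme A at mitochondria, read 346, 442 and 419.5 on high fat diet and 257, 268 and 299 on chow. Every high fat array was above every chow array, and the log2 fold change was 0.54 ± 0.15 (SE, adjusted p = 0.476). Acot2, the mitochondrial acyl-CoA thioesterase, read 40.7 to 56.6 against 24.5 to 39.3, below the filter. Acot1, its cytosolic relative, read 13.3 to 22.7 against 17.7 to 21.9. The sequences of Acot1 and Acot2 are close to each other, so that their probes may share signal.

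In the carnitine shuttle the inner membrane enzyme Cpt2 stood further from its chow level than Cpt1a of the outer membrane, a contrast that was not tested. Cpt1b, also listed for the outer membrane step, was not measured. Cpt2 read 618, 767 and 641 on high fat diet and 374, 334 and 473 on chow. Its lowest high fat array was above its highest chow array, with means of 675 ± 80.3 and 394 ± 71.7 (SD, n = 3 each) and a log2 fold change of 0.78 ± 0.16, the highest of any member. A second Cpt2 probe set, near 50 on most arrays, had 0.32 ± 0.23.

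Cpt1a, the outer membrane enzyme that was measured, acts at the rate-limiting step of entry. It read 438, 591 and 466 on high fat diet and 471, 471 and 460.1 on chow. The chow arrays were nearly equal, high fat replicate 1 was below them all, and the log2 fold change was 0.08 ± 0.15 (adjusted p = 0.933). It was -0.05 without high fat replicate 2 and -0.12 as the mean of all 3 probe sets, 2 of which were below the filter. Crat, which moves acetyl groups and short chains onto carnitine, read 279, 339 and 279.5 against 263, 241 and 265. These diets did not overlap, but the gap between 265 and 279 was smaller than the spread within the high fat arrays (log2 fold change 0.22 ± 0.15, adjusted p = 0.807).

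The acyl-CoA dehydrogenases open each turn of the spiral, and their members differ in chain length. Acadvl, for very long chains, read 2157, 2929 and 2063 on high fat diet and 1699, 1589 and 1945 on chow. High fat replicate 2 stood well above the others, and the other high fat arrays were little above chow replicate 3 (log2 fold change 0.44 ± 0.15, adjusted p = 0.586, and 0.28 without high fat replicate 2). Acadl, for long chains, read 2061, 2435 and 2042 against 1513, 1292 and 1952. Its chow arrays spread more than its high fat arrays, with SDs of 336 and 222, and the log2 fold change was 0.47 ± 0.16 (adjusted p = 0.569).

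Acads, for short chains, read 496, 661 and 449.7 against 284, 394 and 440.5, so that high fat replicate 3 and chow replicate 3 were almost equal (log2 fold change 0.52 ± 0.20, adjusted p = 0.633). It was 0.34 without chow replicate 1 and 0.36 without high fat replicate 2, in both cases with an unadjusted p above 0.05. Acadm, for medium chains, read 2005, 2444 and 2114 against 1741, 1662 and 2078. Chow replicate 3 lay above high fat replicate 1, and the log2 fold change was 0.26 ± 0.13 (adjusted p = 0.744). Acad10 and Acad9, relatives with roles apart from the main spiral, were dim. Acad10 had a log2 fold change of 0.55 ± 0.28, with chow replicate 3 at 52.1 above high fat replicates 1 and 3, at 51.8 and 48.4. Acad9, known for the assembly of complex I, had -0.15 ± 0.23 and, by its second probe set, 0.06 ± 0.28.

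The branched-chain enzymes Acadsb and Acad8, which act in the breakdown of isoleucine and valine, differed from each other in sign. Acad8 read 202, 199.5 and 190.2 on high fat diet and 165, 183 and 183 on chow. The diets did not overlap, at a ratio of means of 1.11 and a log2 fold change of 0.15 ± 0.15. Acadsb had lower means on high fat diet, 338 ± 27.8 against 396 ± 41.5 (SD, n = 3 each), and its arrays overlapped (log2 fold change -0.22 ± 0.15). The Acadsb probe set is of a kind that can bind related transcripts.

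**Figure D2:**
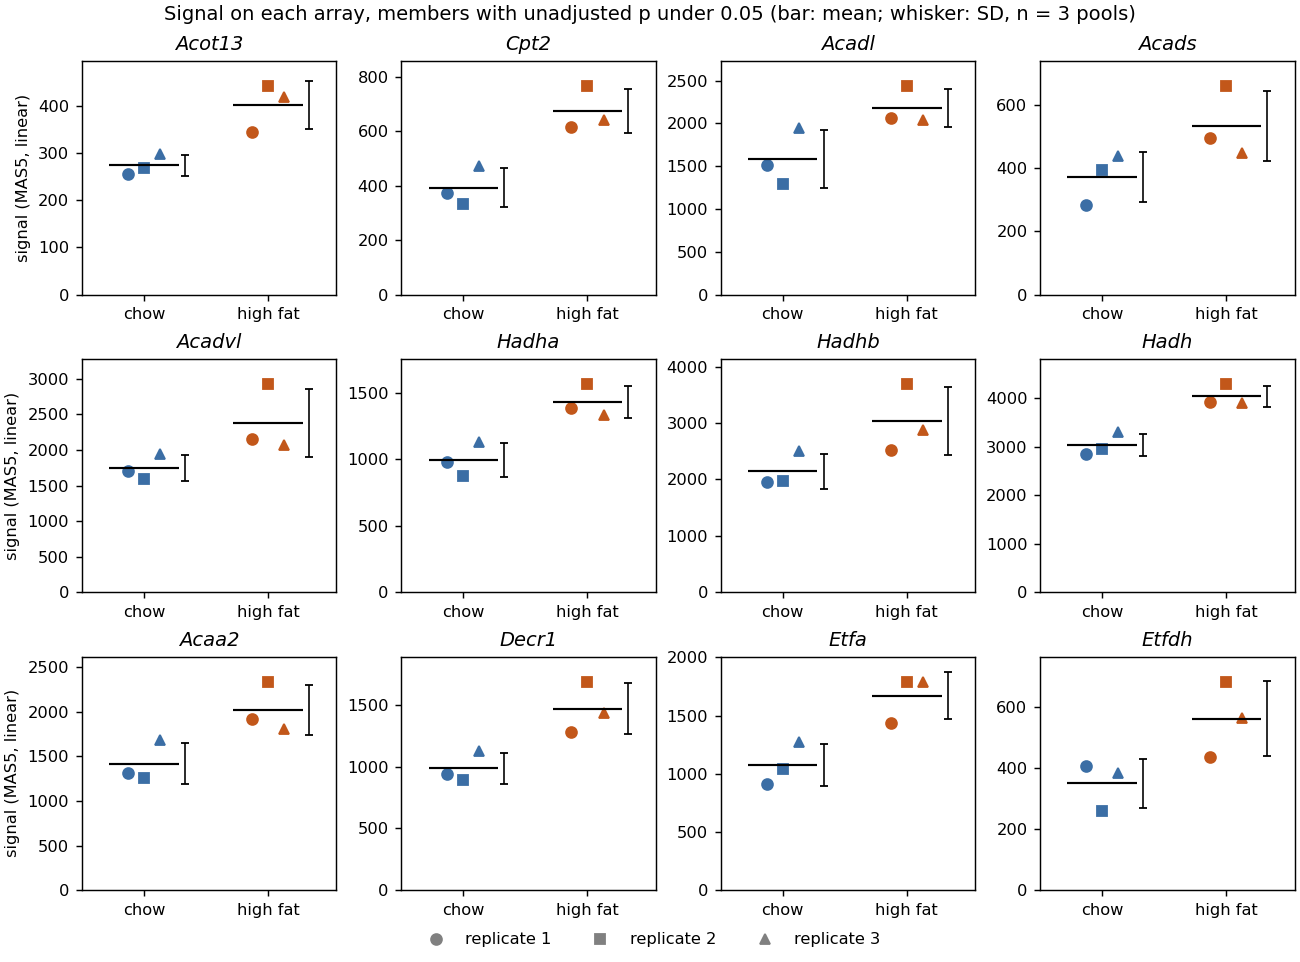
Signal (y axis, linear from 0) on each of the 6 arrays for the 12 members with unadjusted p under 0.05, by diet (x axis), with a marker per replicate, the mean as a bar and the SD as a whisker. High fat replicate 2 is the top point of each panel, and chow replicate 3 is the top chow point in each but Etfdh.

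Of the enzymes from hydratase to thiolase, each of the 6 had its higher mean under high fat (50.9% of genes) and 4 had an unadjusted p under 0.05 (4.28% of genes). Hadha, the subunit of the trifunctional protein with hydratase and hydroxyacyl-CoA dehydrogenase activity, read 1387, 1568 and 1338 on high fat diet and 979, 875 and 1135 on chow. The gap from 1135 to 1338 was wider than the SD of either diet, 122 and 131, and the log2 fold change was 0.52 ± 0.14 (adjusted p = 0.445). Hadhb, the thiolase subunit that starts from the other side of the sequence printed above, read 2518, 3692 and 2872 against 1949.8, 1974 and 2502. Here high fat replicate 1 and chow replicate 3 nearly met, and the log2 fold change was 0.49 ± 0.16 (adjusted p = 0.549). A second Hadhb probe set, of a kind that can bind related transcripts, read 605 against 632 on average, a log2 fold change of -0.06 ± 0.18.

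Hadh, the hydroxyacyl-CoA dehydrogenase for medium and short chains, read 3909.8, 4289 and 3899 on high fat diet and 2856, 2949.8 and 3293 on chow. The diets stood clear of each other by more than either SD, 222 and 230.0, with a log2 fold change of 0.41 ± 0.11 (adjusted p = 0.452). The probe set used can bind related transcripts, and another without that limit read 1418, 1594 and 1473 against 919, 830.5 and 1095 (0.66 ± 0.14, adjusted p = 0.295). The third Hadh probe set was dim, at 39.2 to 124.5.

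Acaa2, the thiolase for medium chains, read 1919.6, 2337 and 1805 against 1313, 1257 and 1687, with a log2 fold change of 0.51 ± 0.15 (adjusted p = 0.506). Its probe set, like that used for Hadh, can bind related transcripts. Chow replicate 3 was again the highest chow array, and the other Acaa2 probe sets had 0.97 ± 0.28 and 0.51 ± 0.23. Acat1, the acetoacetyl-CoA thiolase, read 1299.7, 1378 and 1212 against 1012, 877 and 1276, and the diets overlapped (0.31 ± 0.15, adjusted p = 0.736). Its other probe sets had 0.21 and 0.20. Echs1, the short-chain enoyl-CoA hydratase, had means of 826 ± 92.0 and 701 ± 83.9 (SD, n = 3 each) and a log2 fold change of 0.24 ± 0.15.

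Unsaturated fatty acids need further enzymes that move or remove double bonds. Decr1, the mitochondrial dienoyl-CoA reductase, read 1282, 1689.6 and 1435 on high fat diet and 944, 891 and 1127 on chow. No array crossed over, the log2 fold change was 0.57 ± 0.15 (adjusted p = 0.445), and a second probe set had 0.64 ± 0.18. Eci1, an enoyl-CoA isomerase of mitochondria, read 858, 1117 and 906 against 719, 666 and 919, with chow replicate 3 above high fat replicates 1 and 3 (0.32 ± 0.16, adjusted p = 0.742). Eci2, an isomerase found in peroxisomes as well, had means of 315 ± 8.4 and 326 ± 27.1 (SD, n = 3 each) and so a log2 fold change of -0.04 ± 0.14.

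In electron transfer, 2 of the 3 genes lay wholly higher on high fat diet, as did 6.79% of genes. Etfa, the alpha subunit of the electron transfer flavoprotein, read 1436, 1791 and 1785 on high fat diet and 914, 1038 and 1269.6 on chow. The diets did not overlap, and the log2 fold change was 0.64 ± 0.15 (adjusted p = 0.395). Etfdh, which passes the electrons on to ubiquinone, read 437, 683 and 565 against 408, 259 and 385. High fat replicate 1 was just above chow replicate 1, the log2 fold change was 0.68 ± 0.21 (adjusted p = 0.518), and with the brown adipocyte markers described below as a covariate it was 0.07. Etfb, the beta subunit and partner of Etfa, read 1683, 2665 and 2357 against 1742, 1774 and 2315. High fat replicate 1 was the lowest of the 6 arrays, and the log2 fold change was 0.19 ± 0.18 (adjusted p = 0.864). The difference between the subunits was not tested.

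The ketone body genes had a median log2 fold change of -0.06. Oxct1, the transferase that activates acetoacetate in tissues that burn ketone bodies, had the lowest fold change of the 28 members. It read 2008, 1397 and 1579 on high fat diet and 2231, 2012 and 1815 on chow. High fat replicate 1 lay within the chow arrays, and the log2 fold change was -0.29 ± 0.15 (adjusted p = 0.745). The other 3 Oxct1 probe sets had -0.31, -0.28 and -0.30, and the first of these separated the diets, at 937 to 1114 against 1141 to 1442 (adjusted p = 0.702). Bdh1, the hydroxybutyrate dehydrogenase, read 182 to 221 on high fat diet and 159 to 186 on chow (0.17 ± 0.16).

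**Figure D3:**
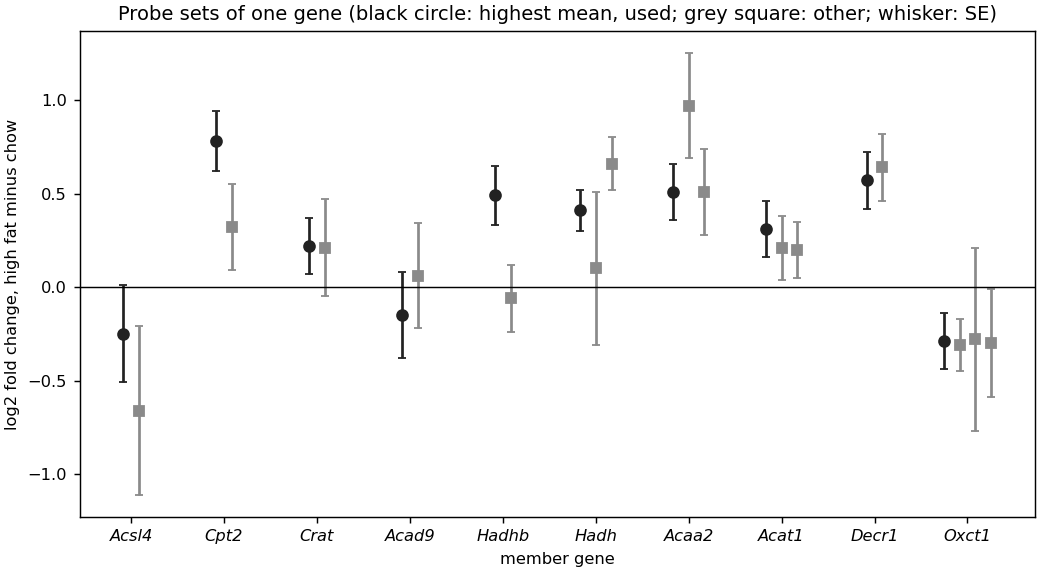
Log2 fold change (y axis, high fat minus chow, with SE) of every tested probe set of the members (x axis) that had more than 1. The 4 Oxct1 probe sets lie between -0.31 and -0.28, while those of Hadhb lie at 0.49 and -0.06.

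Of 21 further probe sets of members, 15 passed the filter, 10 of them with higher means on high fat diet (50.9% of genes with 1 probe set each). Those with an unadjusted p under 0.05 in limma were 3 higher (4.28% of genes), 1 each of Hadh, Acaa2 and Decr1, and 1 lower (2.7% of genes), of Oxct1.

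Members shared their order among pools of one diet as well. High fat replicate 2 was the highest high fat array for 23 of the 28 members, where this held for 38.3% of genes. Chow replicate 3 was the highest chow array for 21 of 28 (35.3% of genes) and chow replicate 2 the lowest for 16 (28.2% of genes). As the mean log2 deviation over the 30 members, the arrays stood at 0.03, 0.30 and 0.10 on high fat diet and -0.17, -0.27 and 0.00 on chow. High fat replicate 1 and chow replicate 3 were thus nearly level, and the SD within diets was 0.14. A sign of RNA integrity, the Gapdh control signal at the 3' end over that at the 5' end, lay at 0.96 to 1.07 on high fat diet and 0.89 to 1.38 on chow. The same ratio for actin was 1.27, 1.94 and 1.56 on high fat diet and 1.37, 1.79 and 1.49 on chow. It was highest in high fat replicate 2, where most members were highest, and next highest in chow replicate 2, where most were lowest on chow. The Gapdh ratio was highest in chow replicate 2, at 1.38. The part of either ratio in the order of the members was not tested.

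Markers of brown adipocytes, macrophages and endothelium had higher summed signals on every high fat array, as the members did, while those of skeletal muscle had lower means for most. The labelled tissue was borne out by 12 smooth muscle markers, whose summed signal was 28549 to 29200 on high fat diet and 28429 to 34165 on chow. Of these 12, 11 had lower means on high fat diet. Markers of brown adipocytes were present although the vessels had been stripped of fat, and 10 of the 12 listed were on the array. Ucp1, the uncoupling protein of brown adipocytes, read 3664, 3623 and 3154 on high fat diet and 2592, 2122 and 2724 on chow. Summed over the 10, the signal was 10473 to 12743 on high fat diet and 6837 to 8973 on chow. The means of 9 of the 10 were higher on high fat diet (50.9% of genes), 5 of them at an unadjusted p under 0.05 (4.28% of genes), and Zic1 and Lhx8, which mark that lineage, were below the filter. In bulk RNA, more cells of a type and more RNA per cell cannot be told apart.

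The mean log2 deviation of the brown adipocyte markers was -0.07, 0.45 and 0.27 on high fat diet and -0.19, -0.38 and -0.07 on chow. High fat replicate 1 and chow replicate 3 were level here too by this mean, but their summed signals were 10960 and 8973. Kcnk3 lowered the mean of high fat replicate 1, where it read 24.5 against 97.5 to 163.9 on the other arrays. High fat replicate 2 and chow replicate 2 were the ends, as for the beta-oxidation genes. Macrophage markers had the same ends, at -0.07, 0.58 and 0.28 on high fat diet and -0.11, -0.47 and -0.21 on chow. With the mean of the brown adipocyte markers as a covariate, the median log2 fold change of the members was 0.07. None of the 28 had an unadjusted p under 0.05 in limma, where 1.27% of genes were higher at that p. Cpt2 then had 0.44 and Etfa 0.35. The covariate itself differed between the diets, so that diet and brown adipocyte RNA cannot be told apart by this fit. White adipocyte markers had higher means for 11 of 14 on the array, with summed signals of 20201 to 22278 on high fat diet and 18489 to 23342 on chow. At an unadjusted p under 0.05, 2 white markers were higher and 2 were lower, in the same fit and against the same 4.28% and 2.7% of genes. The 2 higher were Gpd1 (log2 fold change 0.81 ± 0.21, adjusted p = 0.445) and Lipe (0.54 ± 0.18, adjusted p = 0.549). Of the 2 lower, the adipokine gene Retn fell, at 215.4 to 217.8 against 386 to 524 (log2 fold change -1.06 ± 0.16, adjusted p = 0.044). Car3, a carbonic anhydrase on the white adipocyte list, read 1832 to 2633 against 3739 to 4479 (-0.91 ± 0.14, adjusted p = 0.077). Lep, which the filter removed, read 56.2 to 111.4 against 7.8 to 28.2.

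Cardiac muscle burns fat too, and its markers had higher means on high fat diet for 15 of 15, none at an unadjusted p under 0.05 in limma. Their summed signal ran from 1367 to 9431 on high fat diet and from 1328 to 4894 on chow, lowest in high fat replicate 1 and chow replicate 3. With their mean as a covariate the members' median was 0.34 and 11 of the 28 had an unadjusted p under 0.05 (3.41% of genes were higher at that p), against 12 without it (4.28% of genes), all higher on high fat diet. Macrophage markers were higher for 11 of 12 (50.9% of genes), with sums of 2883 to 4889 against 2210 to 2787. Of these, 6 had an unadjusted p under 0.05 in limma (4.28% of genes). Endothelial markers were higher for 13 of 14, with sums of 2526 to 3071 against 2359 to 2481, and 3 were higher at that p. Skeletal muscle markers were lower for 9 of 12, with sums of 811 to 1091 against 932 to 1454, and 2 were lower at that p (2.7% of genes). No marker of these lists was at 0, and the part of the macrophage, endothelial and skeletal muscle markers in the members' differences was not tested.

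**Figure D4:**
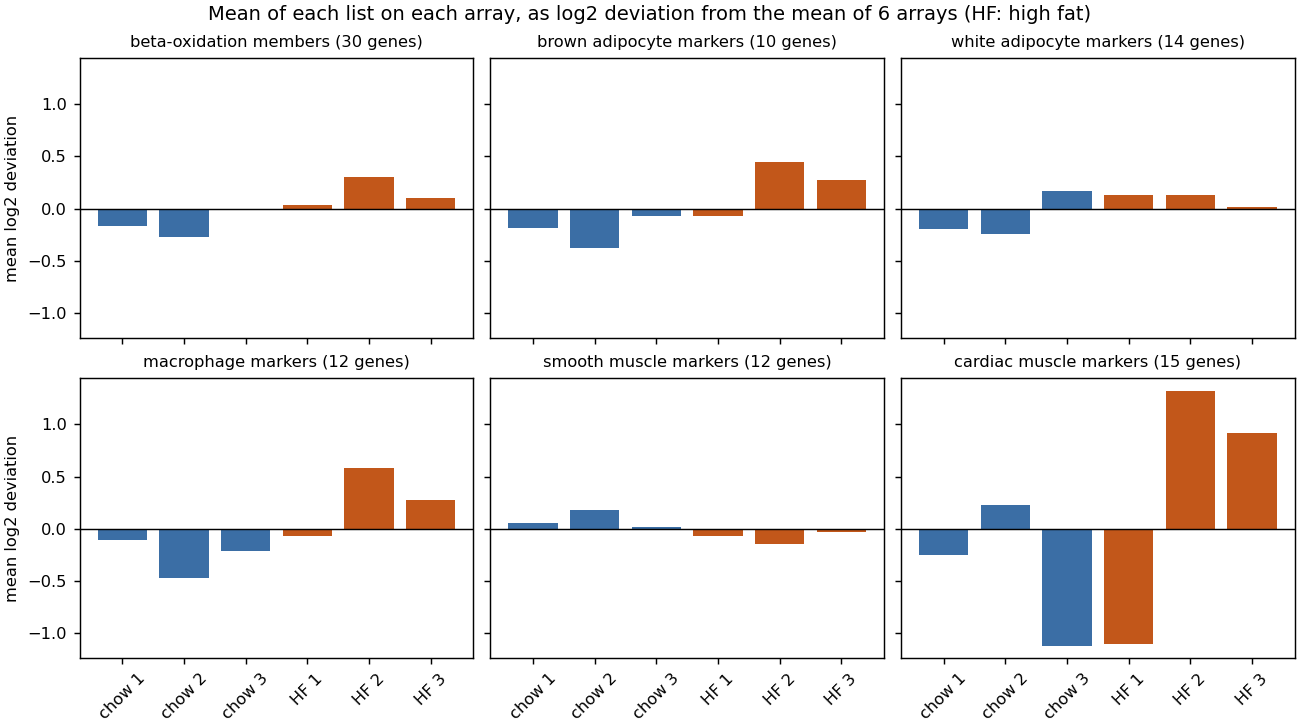
Mean log2 distance from the average over 6 arrays (y axis) of the beta-oxidation members and of 5 marker lists, on each array (x axis; HF is high fat). The members and the brown adipocyte markers are highest in high fat replicate 2, at 0.30 and 0.45, and lowest in chow replicate 2, at -0.27 and -0.38. Macrophage markers share these ends, at 0.58 and -0.47.

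Of 30 other genes of fatty acid supply and control, 26 were on the array and 24 were tested. At an unadjusted p of 0.05, 7 were higher on high fat diet and none was lower, in the same fit and against the same 4.28% and 2.7% of genes, and the median log2 fold change was 0.30. Fabp3, which carries fatty acids in the cytosol of oxidative cells, was the gene of these past the adjusted threshold, and it rose with a log2 fold change of 1.67 ± 0.15 (adjusted p = 0.002). With the brown adipocyte covariate its log2 fold change was 1.60 and its adjusted p 0.307. Slc25a20, the carrier that exchanges acylcarnitine between the steps of Cpt1a and Cpt2, read 837, 1114 and 1048 on high fat diet and 799, 515 and 558 on chow. High fat replicate 1 was little above chow replicate 1 (0.69 ± 0.18, adjusted p = 0.452).

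Regulators of the pathway were among the 7. Ppara, which encodes PPAR alpha, read 213, 204 and 213 against 110.4, 83.2 and 137, with a log2 fold change of 0.92 ± 0.19 (adjusted p = 0.295). Its high fat arrays were close together and well above chow. Esrra, an orphan nuclear receptor that drives mitochondrial genes, and Ppargc1b, a coactivator of both receptors, had 0.47 ± 0.17 and 0.43 ± 0.16, and neither overlapped between the diets. Pdk4, the kinase that shuts off glucose oxidation when fat is burned, had 0.62 ± 0.22 with overlap and 0.40 without chow replicate 2, and the fatty acid transporter Cd36 had 0.88 ± 0.19 without. Acaca and Acacb, which make the malonyl-CoA that blocks Cpt1a, had -0.14 ± 0.22 and 0.01 ± 0.18, and Mlycd, which removes it, had 0.33 ± 0.16.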

How the data were processed

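The 6 arrays were analysed from the deposited table of signal intensities, which the authors made with MAS5 per the submitters' processing notes, its version being not given in the sources used here. Each array had a trimmed mean of 150.05, so this scaling was kept. The table held 22690 probe sets, and 64 controls were left out. Detection calls were not used here. Genes were named from the platform annotation, from probe sets with 1 symbol. Signals were transformed as log2(signal + 6), where 6 is the 10th percentile of all signals, and probe sets with a mean above the 40th percentile were kept. A two-sided limma test (version 3.58.1, R 4.3.3) of high fat against chow used lmFit and eBayes, the variance following the mean, and p-values were adjusted by Benjamini-Hochberg over the 13575 probe sets kept. The number of arrays limits the precision. Steps were checked on artificial data with known changes. Members and gene lists were chosen with earlier results of these data known. The naming rule gave values on every array for members at an unadjusted p under 0.05, members whose diets did not overlap and the member of largest opposite change. Ucp1, Lep and the others given by array were chosen after their values were seen. Promoter windows came from RefSeq on GRCm38.p6. Python 3.11.15 and pandas 2.3.3 made the tables. Alternatives changed the pseudocount, filter, scaling, variance model, array weights, pairing, probe set choice, marker covariates and single arrays left out.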

Additional observations from a re-analysis of the deposited data

How the results depend on the processing

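Low signals, at which background and expression cannot be separated, and 3 pools per diet limit these results. Over 20 other settings, the log2 fold changes of the 12 members at an unadjusted p under 0.05 stayed positive. Changes of filter, variance model and replicate block cannot turn this sign, since they leave the difference of means as it is. The unadjusted p in limma stayed under 0.05 in 16 settings for Acadl and Acads, 17 for Acadvl and Hadhb and 19 for the others of the 12. No member passed the adjusted threshold in any setting. The 10 probe sets past that threshold became 6 without a filter, 5 without a variance trend, 5 with the replicate number as a block, 6 by the mean of a gene's probe sets, 5 with the cardiac covariate and 0 with the brown adipocyte covariate, and 5 to 16 with 1 array left out (5 without high fat replicate 2 or chow replicate 2, 16 without high fat replicate 1). The brown adipocyte covariate gave a median of 0.07 for the members, 0 members higher at an unadjusted p under 0.05 and 2 related genes (1.27% of genes). Members lower at that p numbered 0 as reported (2.7% of genes), but 1 with the replicate block, Oxct1, and 0 to 1 with 1 array left out. Those wholly below chow numbered 0 as reported (5.78% of genes), but 1 with equal medians and 0 to 2 with 1 array left out. With fewer arrays more genes do not overlap: 9.54 to 15.6% lay wholly higher with 1 array left out, against 6.79% as reported. The shares of genes lower under the other settings were not counted, so these member counts have no share to be read against. A pairing of pools by replicate number was not shown: deviations of same-numbered arrays correlated at 0.03, 0.17 and -0.11, and those of other pairs at -0.16 to 0.14. With 3 arrays per diet these correlations cannot settle it. The block left 12 members higher at an unadjusted p under 0.05 in limma (4.72% of genes). Signs turned for Cpt1a by the mean of probe sets (-0.12), with the cardiac covariate (-0.005), with the brown adipocyte covariate (-0.15) and with 1 array left out (-0.05 to 0.17). The brown adipocyte covariate also turned Acsl5 (-0.23), Acadm (-0.01), Acad10 (-0.01), Eci1 (-0.04), Etfb (-0.35), Oxct1 (0.07) and Pdk4 (-0.08). With 1 array left out, Acsl4 ran from -0.43 to 0.02, Eci2 from -0.10 to 0.02 and Acad9 from -0.39 to 0.04. The cause was not tested. The probe set choice without _x_at and _s_at suffixes leaves the fit of all probe sets as it is.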
